A study of Homo sapiens with 5 samples.

Results

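The DNA replication machinery and E2F factors were described here through 55 genes, picked by symbol from the 57992 genes of the count table. They comprise 9 genes of origin licensing, 13 of a helicase group that includes MCM8 and MCM10, and 2 of the kinase that fires origins. Another 9 are of the primase and polymerases, 6 of the sliding clamp and its loader and 3 of the single-strand binding protein. The rest are 3 of Okazaki fragment maturation, 4 fork factors, 3 chromatin factors that work behind the fork and 3 E2F factors. All 55 passed the filter on low counts, and the fewest reads of any of them in a library was 117. The choice was made with earlier results of these data known.

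The cells were Ishikawa, a long-established line from a human endometrial cancer of the endometrioid type, and poly(A) RNA was sequenced in 5 libraries. In 2 libraries, called co-culture, the cells had grown for 3 days in the lower chamber of a transwell with differentiated adipocytes above a membrane with pores of 0.4 µm. In 2 others, called EX527 co-culture, the same arrangement held EX527, an inhibitor of the deacetylase SIRT1. The last library came from Ishikawa cells grown alone, called monoculture. The labels state neither the dose and duration of EX527 nor the species and origin of the preadipocytes, and no library held monoculture with EX527. The labels give the treatment for the co-culture as a whole, so an effect through the adipocytes and an effect in the cancer cells cannot be told apart. The question of the design was what co-culture with adipocytes changes in the cancer cells and what SIRT1 inhibition changes in that setting.

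Before a cell copies its DNA, the origin recognition complex, CDC6 and CDT1 load a ring of the MCM proteins onto origins while the cell is in G1. A kinase made of CDC7 and DBF4 then helps CDC45 and the GINS complex to join that ring, which turns it into the active helicase in S phase, and polymerases, clamp and ligase follow it. Many of these genes are transcribed at the entry into S phase by E2F factors, whose activators are held back by the retinoblastoma protein until cyclin-dependent kinases release them. In tumours their mRNAs are widely used as readouts of proliferation.

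Libraries held 45653845 to 52269963 counted reads, and levels are given as CPM, that is, counts scaled to a common library size with TMM factors. Whether the replicates were grown as separate cultures is not stated, so a p-value reflects the spread between these libraries alone, and that spread may be technical. The EX527 co-culture libraries differed from each other far more than the co-culture libraries did. Over 11369 well-read genes the SD of the log2 difference between replicates was 0.598 with EX527 and 0.111 in co-culture, and over the 55 genes it was 0.512 and 0.0998. EX527 co-culture replicate 1 also had at least 10 reads in 33325 genes, against 26022 to 27103 in the other libraries. Of 12 endometrial epithelial markers the summed level was 6301 to 6911 CPM in co-culture, 1530 to 2647 under EX527 and 2555 in monoculture. This sum moved with most of the genes described here, and KRT8 alone made up 2674 and 2287 CPM of it in co-culture. SOX17, FOXA2 and ESR1 did not follow it. SOX17 was at 102 and 99.3 CPM in co-culture, 85.7 and 179 under EX527 and 130 in monoculture. ESR1 was at 22.0 and 20.9, 32.9 and 20.5, and 27.7 CPM, and FOXA2 was below 1 CPM in every library. Of 14 adipocyte markers the sum was 162 to 172, 149 to 201 and 248 CPM in the same order, with the adipocyte-defining ADIPOQ, FABP4 and LEP below 1 CPM in every library. ADIPOQ, FABP4, LEP, CIDEA and CD36 were highest in EX527 co-culture replicate 1, where CD36 reached 6.89 CPM against 0.821 or less elsewhere. LPL and PPARG were lowest in co-culture, with PPARG at 7.40 and 6.90 CPM there, 18.6 and 25.9 under EX527 and 42.7 in monoculture. Of 12 fibroblast and preadipocyte markers it was 127 to 142, 117 to 272 and 209 CPM, with DCN, POSTN and DLK1 at 1.24 CPM or lower. Of these 12, 9 were highest in EX527 co-culture replicate 1, DCN, POSTN and DLK1 included. COL1A2 was at 20.7 and 20.4 CPM in co-culture, 70.3 and 189 under EX527 and 122 in monoculture, while COL3A1 was at 27.7 and 25.9, 5.17 and 9.58, and 26.3 CPM. The part of these differences in the results was not tested.

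For 38 of the 55 genes both co-culture libraries were above all 3 other libraries, and for 2 (ORC4 and RFC1) both were below them. Over all 34658 genes tested, 22.0% were above and 19.8% below in this way. Of all reads, the 55 genes together took 0.366% and 0.356% in the co-culture libraries, 0.257% and 0.274% in the EX527 libraries and 0.249% in monoculture. The co-culture libraries did not overlap with the others in this share. In bulk RNA, fewer cells in S phase and less of these RNAs per cell cannot be told apart.

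With EX527 added, 45 of the 55 genes were lower in both EX527 libraries than in both co-culture libraries, 2 (ORC4 and RFC1) were higher in both, and 8 overlapped. Over all 34658 genes tested, 26.8% were lower and 28.3% higher in this way. The median log2 fold change was -0.67 over the 55 genes and 0.15 over all genes, and it was negative for 50 of the 55. In edgeR's quasi-likelihood test none of the 55 passed an adjusted p of 0.05, and neither did any other gene (percent called 0). The smallest adjusted p among the 55 was 0.0774, for CDC45. At an unadjusted p under 0.05, 33 were lower and 1 was higher, against 9.29% lower and 10.0% higher of all genes. DESeq2's Wald test called 17 of the 55 lower and none higher, against 5.19% and 6.76% of all genes it tested, and limma-voom called none.

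That test took its spread from the co-culture pair and the EX527 pair, since monoculture has 1 library, and most of it came from the difference between both EX527 libraries. Fitted on the 5 libraries together, the common dispersion was 0.264, and it was 0.00434 once EX527 co-culture replicate 1 was left out or 0.0045 once replicate 2 was. Without replicate 1, edgeR called 42 of the 55 lower and 1 (ORC4) higher, against 22.6% and 21.7% of all genes. Without EX527 co-culture replicate 2 instead, 42 were lower and 4 (ORC4, RFC4, RPA3 and TIPIN) higher, against 31.1% and 39.1%. In both of these fits the remaining EX527 library is assumed to vary as the co-culture libraries do. Most of the genes called lower were called in both fits, and ORC4 was called higher in both. The share of all genes called in both was not counted. Both fits share the co-culture libraries and take their spread from that pair, so they are not separate evidence.

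**Figure D1:**
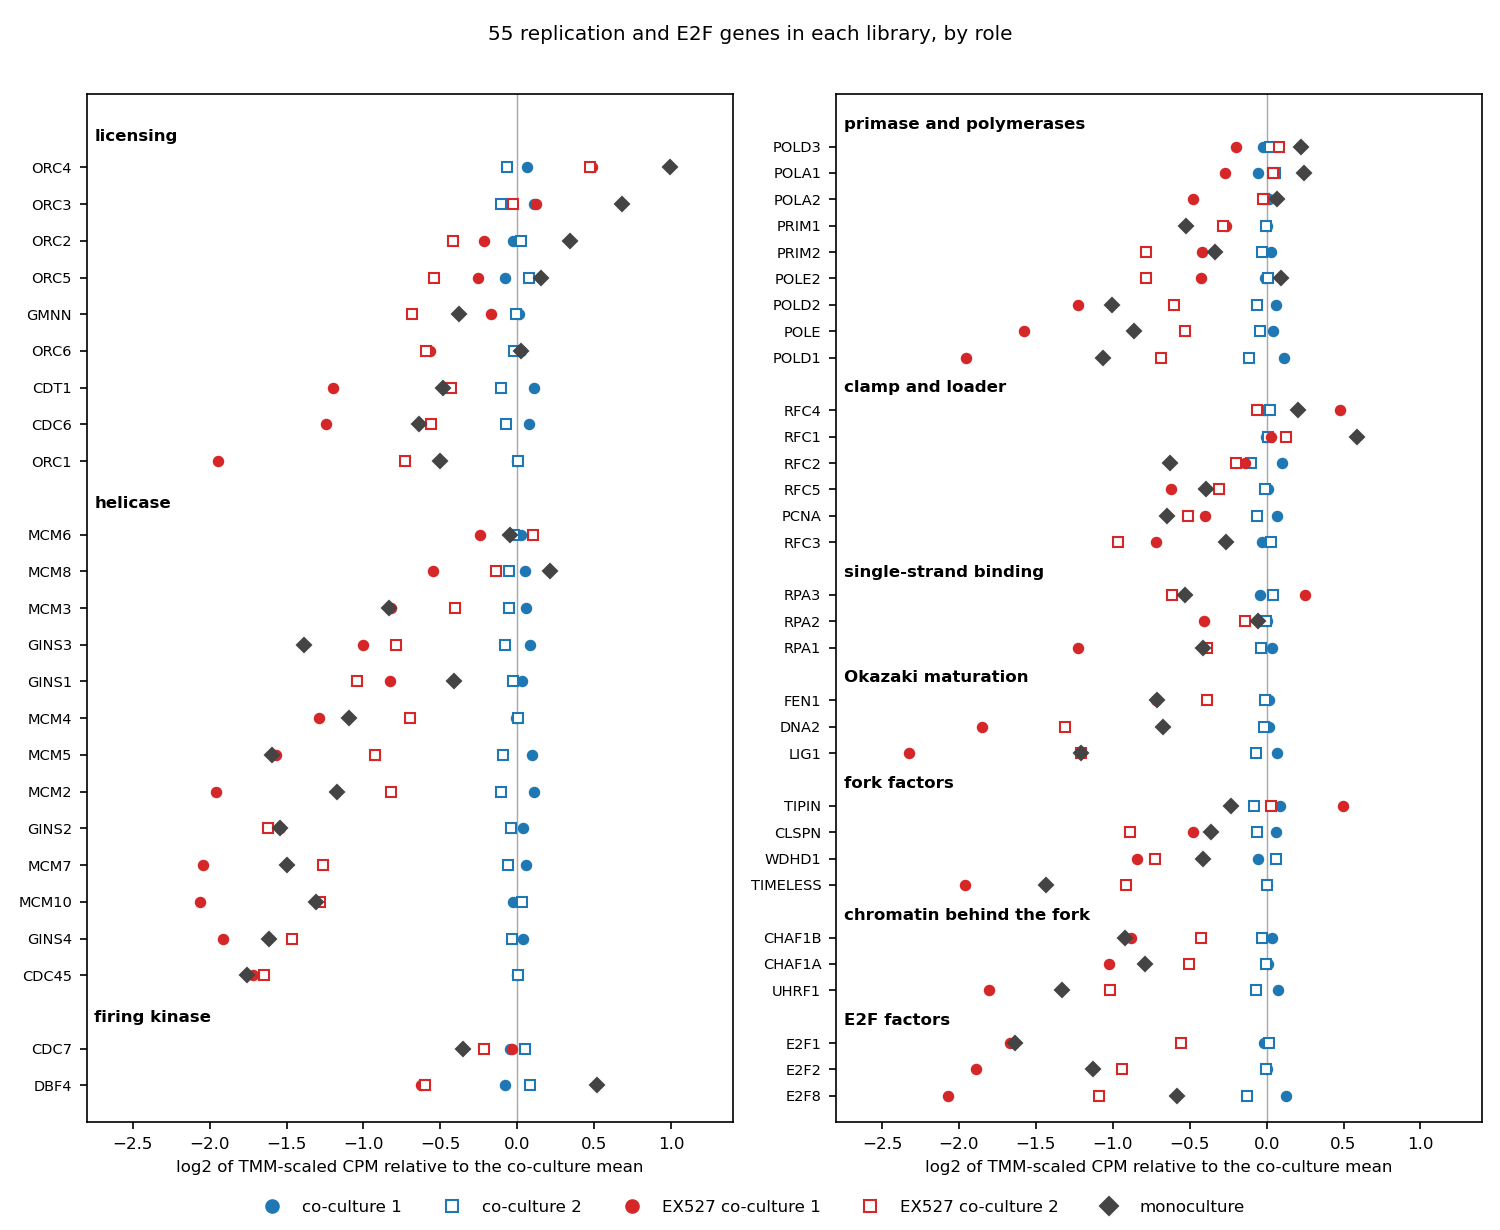
Each of the 55 genes in each library by role, as the log2 of TMM-scaled CPM relative to the mean of both co-culture libraries (x axis). The co-culture points lie close together near 0, 45 genes have both EX527 points to their left, and EX527 co-culture replicate 1 is often the farther one.

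Among the licensing genes the initiator subunit ORC1 and the loaders differed from the rest of the origin recognition complex in co-culture against monoculture. ORC1 was at 25.4 and 25.5 CPM in co-culture, 6.62 and 15.4 under EX527 and 18.0 in monoculture. The log2 fold change of ORC1 was -1.23 (SE 0.42, edgeR adjusted p = 0.23) for EX527 against co-culture and 0.50 (SE 0.51, adjusted p = 0.756) for co-culture against monoculture. Co-culture was the highest group for ORC1, and its libraries overlapped with no other. ORC4, another subunit of the same complex, was at 43.7 and 39.8 CPM in co-culture, 58.5 and 57.9 under EX527 and 83.1 in monoculture. The log2 fold change of ORC4 was 0.48 (SE 0.18, adjusted p = 0.256) with EX527 and -0.99 (SE 0.22, adjusted p = 0.152) for co-culture against monoculture. ORC4 therefore differed from ORC1 in the place of co-culture, which was its lowest group, with no overlap. For both genes the EX527 libraries lay below monoculture. The other subunits, ORC2, ORC3, ORC5 and ORC6, were also lower in both co-culture libraries than in monoculture, ORC6 only barely, as 13 of the 55 genes were. With EX527, however, ORC2, ORC5 and ORC6 were lower than in co-culture without overlap, as ORC1 was, while ORC3 overlapped. Their log2 fold changes with EX527 were -0.31 for ORC2, -0.39 for ORC5 and -0.58 for ORC6 (edgeR adjusted p = 0.384, 0.348 and 0.214).

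CDC6, which joins the origin recognition complex to load the helicase, was at 46.1 and 41.6 CPM in co-culture, 18.5 and 29.7 under EX527 and 28.1 in monoculture. CDT1, which brings the MCM ring to the origin, was at 57.5 and 49.7 CPM, 23.3 and 39.6, and 38.2 CPM in the same order. For both genes the co-culture libraries were the highest and the monoculture lay between the EX527 libraries. The log2 fold changes with EX527 were -0.87 for CDC6 (SE 0.29, adjusted p = 0.222) and -0.77 for CDT1 (SE 0.31, adjusted p = 0.264). GMNN, the inhibitor of CDT1, was at 51.4 and 50.9 CPM in co-culture, 45.5 and 31.8 under EX527 and 39.3 in monoculture. Its co-culture libraries were again the highest, with a log2 fold change of -0.40 with EX527 (SE 0.24, adjusted p = 0.375). Over the 9 licensing genes the median was -0.40 with EX527 and -0.02 for co-culture against monoculture.

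All 13 helicase genes had a negative log2 fold change with EX527, and the median was -1.21. Of the 13, 12 were lower with no overlap between the groups, against 26.8% of all genes. Compared with monoculture, 12 of the 13 were higher in co-culture, against 42.8% of all genes, with a median of 1.31. The exception was MCM8, which is not a subunit of the MCM ring. The core of this group is the MCM ring, whose 6 subunits MCM2, MCM3, MCM4, MCM5, MCM6 and MCM7 form 1 complex.

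E2F sites in promoters are often written TTTGGCGC or TTTCGCGC, and both forms were searched on both strands in the 300-base windows of RefSeq on GRCh38.p14. Each window surrounds a transcript start in RefSeq, which need not be the outermost start of the gene in GENCODE 44. Of the 60 windows found, 24 lay wholly downstream of that outermost start, as did 5 of the 16 windows with a match, the MCM7 window among them. Windows were found for 47 of the 55 genes, and 16 of the 47 (34.0%) held either form, against 1.40% of 27305 genes. TTTGGCGC was in 11 (23.4%, against 0.795%) and TTTCGCGC in 6 (12.8%, against 0.630%). The forms can overlap across strands through their shared GCGC. CCAAT was in 28 of the 47 (59.6%, against 39.7%), TTTGAA in 1 (2.13%, against 18.2%) and TTCGAA in 1 (2.13%, against 1.82%). A match is a description of these letters and not a measured binding site. The windows of 4 MCM subunits and of E2F1 are shown, because MCM6 parts from MCM2, MCM3 and MCM7 in the data below and all 4 hold a match. They are printed on the strand of the gene, 5′ to 3′, from chr3:127598161-127598460 (MCM2, plus strand), chr6:52284693-52284992 (MCM3, minus strand), chr2:135876394-135876693 (MCM6, minus strand), chr7:100101348-100101647 (MCM7, minus strand) and chr20:33686336-33686635 (E2F1, minus strand), with the E2F letters in capitals.
MCM2: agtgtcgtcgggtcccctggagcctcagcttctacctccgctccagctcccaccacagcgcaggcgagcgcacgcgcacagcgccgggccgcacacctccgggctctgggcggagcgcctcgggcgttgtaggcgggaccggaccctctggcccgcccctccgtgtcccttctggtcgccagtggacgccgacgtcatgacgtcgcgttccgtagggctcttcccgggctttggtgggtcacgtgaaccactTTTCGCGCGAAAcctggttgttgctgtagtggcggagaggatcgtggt
MCM3: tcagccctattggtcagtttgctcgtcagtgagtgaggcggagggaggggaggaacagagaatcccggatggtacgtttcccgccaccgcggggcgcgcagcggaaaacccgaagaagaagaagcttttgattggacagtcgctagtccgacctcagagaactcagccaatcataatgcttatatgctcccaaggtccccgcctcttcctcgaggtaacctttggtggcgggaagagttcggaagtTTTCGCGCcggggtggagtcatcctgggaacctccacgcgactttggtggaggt
MCM6: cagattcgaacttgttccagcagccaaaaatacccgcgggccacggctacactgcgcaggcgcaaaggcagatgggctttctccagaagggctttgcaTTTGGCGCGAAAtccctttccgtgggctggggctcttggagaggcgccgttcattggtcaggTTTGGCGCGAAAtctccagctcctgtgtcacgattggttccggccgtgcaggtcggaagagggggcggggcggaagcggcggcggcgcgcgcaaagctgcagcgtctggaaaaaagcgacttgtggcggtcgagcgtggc
MCM7: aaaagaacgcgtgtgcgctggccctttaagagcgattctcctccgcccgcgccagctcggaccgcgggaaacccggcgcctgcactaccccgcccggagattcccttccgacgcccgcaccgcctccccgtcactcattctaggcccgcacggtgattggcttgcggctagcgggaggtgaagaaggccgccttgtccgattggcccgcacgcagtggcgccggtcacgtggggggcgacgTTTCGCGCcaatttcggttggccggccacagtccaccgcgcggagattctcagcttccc
E2F1: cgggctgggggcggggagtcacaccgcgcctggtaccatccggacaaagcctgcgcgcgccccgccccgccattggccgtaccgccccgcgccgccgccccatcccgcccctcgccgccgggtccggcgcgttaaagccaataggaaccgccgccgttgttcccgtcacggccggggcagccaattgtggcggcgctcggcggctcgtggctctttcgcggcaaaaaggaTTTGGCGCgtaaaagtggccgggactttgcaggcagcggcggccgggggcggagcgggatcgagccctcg
MCM6 held 2 such stretches, each a pair of overlapping matches on both strands. MCM2 held 1 overlapping pair, and MCM3, MCM7 and E2F1 held 1 match each.

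MCM7 was at 295 and 272 CPM in co-culture, 68.6 and 118 under EX527 and 100.2 in monoculture. Its log2 fold change was -1.61 with EX527 (SE 0.31, adjusted p = 0.121) and 1.50 for co-culture against monoculture (SE 0.39, adjusted p = 0.186). MCM2 was at 186 and 160.3 CPM in co-culture, 44.3 and 97.9 under EX527 and 76.6 in monoculture. Both subunits were highest in co-culture without overlap, and EX527 co-culture replicate 1 was the lowest library for each. MCM5 was at 86.5 and 75.8 CPM in co-culture, 27.3 and 42.7 under EX527 and 26.8 in monoculture. MCM4 was at 180.2 and 182 CPM, 74.1 and 111, and 84.9 CPM in the same order. MCM3 was at 175 and 162 CPM, 94.9 and 127, and 94.3 CPM. For MCM3 and MCM5 the monoculture library was the lowest of the 5, and for MCM4 it lay between the EX527 libraries. The log2 fold changes with EX527 of MCM2, MCM5, MCM4 and MCM3 were -1.29 (SE 0.40), -1.21 (SE 0.28), -0.96 (SE 0.25) and -0.60 (SE 0.22), with edgeR adjusted p of 0.211, 0.149, 0.175 and 0.244.

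MCM6 did not share this pattern. It was at 99.4 and 96.1 CPM in co-culture, 82.7 and 105 under EX527 and 94.6 in monoculture. The co-culture libraries lay between the EX527 libraries, and monoculture was just below them. Its log2 fold change was -0.06 with EX527 (SE 0.20, adjusted p = 0.866) and 0.05 for co-culture against monoculture (SE 0.25, adjusted p = 0.983), and both signs turned without EX527 co-culture replicate 1. The first also turned under scaling by library size alone, and the second under DESeq2's size factors and without a filter on low counts. Per kilobase of the canonical transcript, MCM6 was the fifth of the 6 subunits in both co-culture libraries (26.5 and 25.6 CPM per kb). With EX527 it was the third and the fourth (22.0 and 27.9 CPM per kb), and in monoculture the third (25.2 CPM per kb). The ratio of MCM7 to MCM6 in CPM per kb was 4.52 and 4.31 in the co-culture libraries, 1.26 and 1.71 in the EX527 libraries and 1.61 in monoculture. The difference between the subunits was not tested. Of the exons of MCM7, 7.90% overlap AP4M1 on the opposite strand, so a part of its reads is uncertain.

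**Figure D2:**
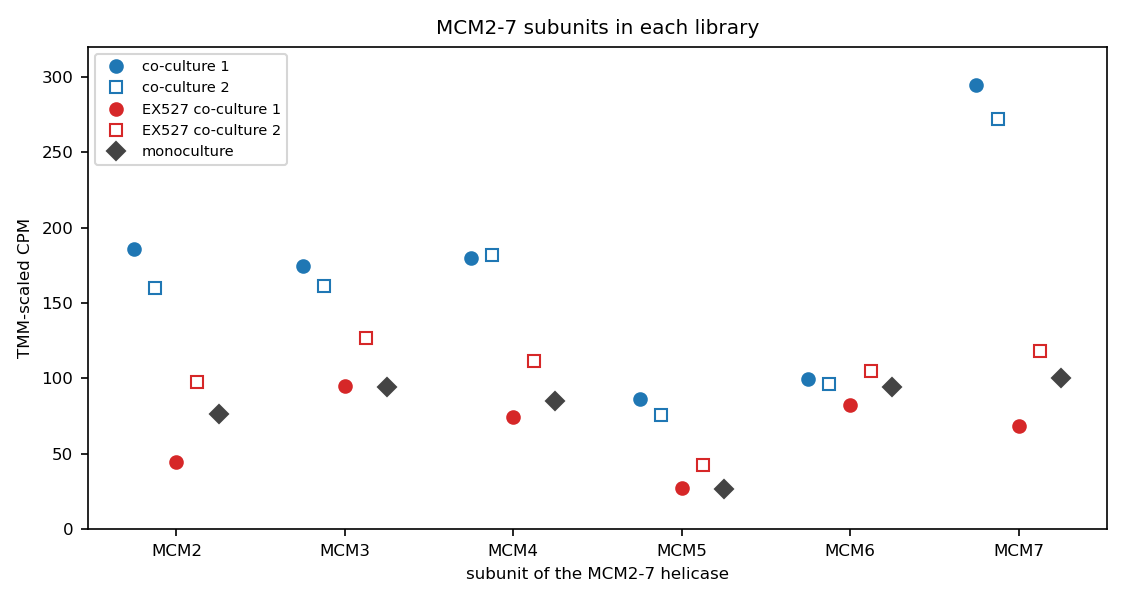
TMM-scaled CPM (y axis) of the 6 subunits of the MCM ring in each library. Both co-culture points lie above the 3 others for 5 subunits, and for MCM6 the 5 libraries lie between 82.7 and 105 CPM.

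CDC45, which with GINS turns the ring into the active helicase, had the smallest p of the 55 genes. It was at 49.3 and 49.4 CPM in co-culture, 15.0 and 15.8 under EX527 and 14.6 in monoculture. Here both EX527 libraries lay close together, unlike for MCM2 or MCM7. Its log2 fold change was -1.68 with EX527 (SE 0.20, adjusted p = 0.0774) and 1.76 for co-culture against monoculture (SE 0.26, adjusted p = 0.122). GINS2, a GINS subunit, was at 23.2 and 22.0 CPM in co-culture, 7.75 and 7.35 under EX527 and 7.77 in monoculture. GINS4 was at 49.4 and 47.1 CPM, 12.8 and 17.5, and 15.7 CPM. Of the exons of GINS4, 21.0% overlap a long non-coding RNA on the opposite strand. MCM10, which helps to activate the helicase, was at 22.6 and 23.6 CPM, 5.53 and 9.50, and 9.31 CPM. The co-culture libraries were at least 2 times the level of every other library for GINS2, GINS4 and MCM10. GINS1 and GINS3 had log2 fold changes of -0.93 and -0.90 with EX527 (adjusted p = 0.137 and 0.165).

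The origin-firing kinase parted into its subunits. CDC7, the catalytic subunit, was at 50.4 and 53.9 CPM in co-culture, 51.0 and 44.9 under EX527 and 40.8 in monoculture, and the first 2 groups overlapped. DBF4, its activating subunit, was at 46.8 and 52.3 CPM, 32.1 and 32.6, and 70.9 CPM in the same order. The 3 groups of DBF4 did not overlap, with monoculture the highest and EX527 the lowest. Its log2 fold change was -0.62 with EX527 (SE 0.19, adjusted p = 0.206), -0.52 for co-culture against monoculture (SE 0.22, adjusted p = 0.364) and -1.13 for EX527 co-culture against monoculture (SE 0.22, adjusted p = 0.614). The sign of CDC7 with EX527 (-0.12, SE 0.19, adjusted p = 0.712) turned under scaling by library size alone (0.16) and without EX527 co-culture replicate 2 (0.011).

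Among the 9 primase and polymerase genes, the catalytic subunits of polymerases delta and epsilon had the most negative log2 fold changes with EX527, though not in EX527 co-culture replicate 2 alone, where PRIM2 and POLE2 were further below co-culture. POLD1, the catalytic subunit of polymerase delta, was at 106 and 90.6 CPM in co-culture, 25.3 and 60.8 under EX527 and 46.9 in monoculture. With EX527 the log2 fold change of POLD1 was -1.19 (SE 0.44, adjusted p = 0.244), and of its exons 8.63% overlap another gene on the same strand. POLE, the catalytic subunit of polymerase epsilon, was at 119 and 112 CPM, 38.7 and 79.8, and 63.3 CPM. For both genes the EX527 libraries differed by more than 2 times and still lay below co-culture. POLD3, an accessory subunit of polymerase delta, was at 51.8 and 53.5 CPM in co-culture, 45.8 and 55.6 under EX527 and 61.5 in monoculture, and its groups overlapped. POLA1, the catalytic subunit of polymerase alpha, also overlapped between EX527 and co-culture, with a log2 fold change of -0.11 (SE 0.21, adjusted p = 0.758). The median of the 9 genes was -0.59 with EX527, and 7 were lower without overlap, against 26.8% of all genes.

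PCNA, the sliding clamp, was at 182 and 166 CPM in co-culture, 132 and 122 under EX527 and 111 in monoculture. The groups did not overlap, and the log2 fold change was -0.46 with EX527 (SE 0.18, adjusted p = 0.261) and 0.65 for co-culture against monoculture (SE 0.23, adjusted p = 0.273). The subunits of its loader did not move together. RFC3 was at 50.8 and 52.9 CPM in co-culture, 31.5 and 26.5 under EX527 and 43.1 in monoculture, with a log2 fold change of -0.84 with EX527 (SE 0.20, adjusted p = 0.157). RFC4 was at 71.8 and 73.7 CPM, 101 and 69.5, and 83.9 CPM, so that its EX527 libraries lay on both sides of co-culture. RFC1, the large subunit, was at 97.2 and 98.1 CPM, 99.6 and 107, and 147 CPM. RFC1 was highest in monoculture, and the lower of its EX527 libraries was above co-culture by less than the EX527 libraries differed from each other.

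RPA1, the large subunit of the single-strand binding protein, was at 202 and 193 CPM in co-culture, 84.3 and 151 under EX527 and 148 in monoculture. RPA3, the small subunit, was at 33.6 and 35.7 CPM, 41.2 and 22.7, and 24.0 CPM. RPA1 was lower in both EX527 libraries, while the EX527 libraries of RPA3 lay above and below co-culture. RPA3 was the gene with the reverse order of replicates, since it was the 1 of 18 genes with EX527 replicates more than 1.5 times apart in which replicate 1 was the higher.

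The 3 genes of Okazaki fragment maturation were all lower with EX527 without overlap, against 26.8% of all genes. All 3 were higher in co-culture than in monoculture, against 42.8% of all genes. LIG1, the ligase that joins the fragments, was at 95.3 and 87.0 CPM in co-culture, 18.2 and 39.4 under EX527 and 39.5 in monoculture. For LIG1 the log2 fold change was -1.67 with EX527 (SE 0.40, adjusted p = 0.155) and 1.21 for co-culture against monoculture (SE 0.50, adjusted p = 0.339). EX527 co-culture replicate 2 and monoculture were at almost the same level, and replicate 1 was lower. DNA2, a nuclease that trims long flaps, was at 45.9 and 44.9 CPM in co-culture, 12.6 and 18.3 under EX527 and 28.4 in monoculture, with a log2 fold change of -1.56 (SE 0.26, adjusted p = 0.0999). FEN1, the flap endonuclease, was at 85.3 and 83.8 CPM, 51.3 and 64.7, and 51.7 CPM, with a log2 fold change of -0.54 (SE 0.21, adjusted p = 0.251). Of the exons of FEN1, 2.23% overlap FADS2 on the same strand, which held 11493 to 44878 reads a library, against at least 2243 for FEN1. For DNA2 both EX527 libraries lay below monoculture, and for FEN1 monoculture lay between them.

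TIMELESS and TIPIN form 1 complex that stabilises the fork, and their levels parted. TIMELESS was at 190.1 and 190.2 CPM in co-culture, 48.9 and 101 under EX527 and 70.5 in monoculture, with a log2 fold change of -1.35 with EX527 (SE 0.37, adjusted p = 0.183) and 1.43 for co-culture against monoculture (SE 0.48, adjusted p = 0.258). TIPIN was at 13.6 and 12.1 CPM, 18.0 and 13.0, and 10.9 CPM, with a log2 fold change of 0.28 with EX527 (SE 0.26, adjusted p = 0.526). For TIMELESS co-culture stood above both other groups and monoculture lay between the EX527 libraries, while for TIPIN the EX527 and co-culture libraries overlapped. The ratio of TIMELESS to TIPIN in CPM per kb was 4.70 and 5.29 in the co-culture libraries, 0.910 and 2.60 in the EX527 libraries and 2.17 in monoculture. Of the exons of TIPIN, 21.1% overlap a ribosomal protein pseudogene that held 12 to 35 reads a library, against at least 472 for TIPIN. CLSPN, a mediator of the checkpoint, and WDHD1, which links polymerase alpha to the helicase, had log2 fold changes of -0.67 and -0.79 with EX527 (adjusted p = 0.23 and 0.16).

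UHRF1, which brings the maintenance DNA methyltransferase to newly copied DNA, was at 71.0 and 64.4 CPM in co-culture, 19.4 and 33.4 under EX527 and 26.9 in monoculture. CHAF1B, a subunit of the factor that lays histones on new DNA, was at 37.9 and 36.3 CPM, 20.2 and 27.6, and 19.6 CPM. Both were highest in co-culture without overlap. Their log2 fold changes with EX527 were -1.36 (SE 0.31, adjusted p = 0.148) and -0.64 (SE 0.24, adjusted p = 0.246).

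The E2F factors were all highest in co-culture. E2F1, an activator, was at 73.8 and 75.2 CPM in co-culture, 23.4 and 50.6 under EX527 and 23.9 in monoculture. E2F2, another activator, was at 13.2 and 13.2 CPM, 3.57 and 6.90, and 6.04 CPM. E2F8, a repressor of the family, was at 9.46 and 7.94 CPM, 2.07 and 4.07, and 5.79 CPM. Monoculture lay between the EX527 libraries for E2F1 and E2F2 and above both for E2F8. The EX527 replicates differed by close to or more than 2 times in all 3 genes, with replicate 1 the lower. The log2 fold changes with EX527 were -1.01 for E2F1 (SE 0.39, adjusted p = 0.256), -1.35 for E2F2 (SE 0.36, adjusted p = 0.179) and -1.52 for E2F8 (SE 0.39, adjusted p = 0.171). Against monoculture co-culture was higher by 1.64 (SE 0.52, adjusted p = 0.237), 1.13 (SE 0.46, adjusted p = 0.335) and 0.59 (SE 0.46, adjusted p = 0.652).

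The 16 genes with E2F letters in their window and the 31 with a window and none had close medians, -0.73 (range -1.61 to 0.28) and -0.64 (range -1.68 to 0.48) with EX527, and 0.53 and 0.49 for co-culture against monoculture. MCM6 and TIPIN hold the letters, and CDC45 and LIG1 do not.

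Further replication genes and E2F partners, listed by function, gave a wider view. Of 37 other replication factors, 27 were lower with EX527 without overlap and 6 were higher, against 26.8% and 28.3% of all genes. Their median log2 fold change was -0.44. At an unadjusted p under 0.05 in edgeR, 11 were lower and 1 higher, against 9.29% and 10.0% of all genes. EXO1, a nuclease, was at 25.9 and 26.5 CPM in co-culture, 9.29 and 11.7 under EX527 and 13.8 in monoculture. MTBP, a partner of the origin-firing factor treslin, ran the other way, at 32.3 and 34.9 CPM, 65.5 and 67.7, and 68.4 CPM. MTBP had a log2 fold change of 0.99 with EX527 (SE 0.19, adjusted p = 0.119) and -1.03 for co-culture against monoculture (SE 0.22, adjusted p = 0.147). TONSL, which works at damaged forks, had a log2 fold change of -1.52 with EX527 (SE 0.26, adjusted p = 0.106). Of 17 genes of the E2F family and its partners, 9 were lower without overlap and 3 higher, against 26.8% and 28.3% of all genes. Their median was -0.53. The larger differences were in the late cell cycle factors that bind with the MuvB complex. MYBL2 was at 128 and 109 CPM in co-culture, 15.4 and 33.5 under EX527 and 28.7 in monoculture, with a log2 fold change of -2.28 (SE 0.41, adjusted p = 0.112). FOXM1 was at 188 and 180.2 CPM, 38.2 and 62.6, and 60.1 CPM, with a log2 fold change of -1.87 (SE 0.29, adjusted p = 0.0932). TFDP2, a dimer partner of E2F, had a log2 fold change of -0.96 (SE 0.22, adjusted p = 0.148).

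Co-culture against monoculture rests on 1 monoculture library, which is assumed to vary as the other groups do. Of the 55 genes 42 were higher in both co-culture libraries than in monoculture and 13 were lower, against 42.8% and 40.7% of all genes. The median log2 fold change was 0.52 over the 55 and 0.05 over all genes. edgeR called none of the 55 and no other gene (percent called 0). At an unadjusted p under 0.05, 18 were higher and 3 lower, against 7.55% and 8.40%, and DESeq2 called 9 higher and 1 (ORC4) lower, against 4.65% and 7.59%, while limma-voom called none. Without EX527 co-culture replicate 1, edgeR called 39 higher and 9 lower, against 26.9% and 27.1%, and without replicate 2 it called 38 and 9, against 22.1% and 22.5%. DBF4, MCM8, ORC2, ORC3, ORC4, POLA1, POLD3, RFC1 and RFC4 were called lower in both fits. Those fits compare the same co-culture and monoculture libraries and differ only in the EX527 library kept, so this agreement was largely fixed in advance.

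EX527 co-culture against monoculture showed no common direction. Of the 55 genes, 23 were lower in both EX527 libraries than in monoculture, 10 were higher and in 22 monoculture lay between the EX527 libraries. Over all genes 27.1% were lower and 33.7% higher. The median was -0.13 over the 55 genes and 0.21 over all genes, and edgeR called none (percent called 0, smallest adjusted p 0.614). At an unadjusted p under 0.05, 6 were lower and 0 higher, against 5.09% and 2.28%. Without EX527 co-culture replicate 1, edgeR called 17 lower and 13 higher, against 19.1% and 14.7% of all genes. Without replicate 2 it called 31 lower and 6 higher, against 28.8% and 33.4%, so which genes passed depended on the EX527 library kept. DBF4, DNA2, GINS1, MCM8, ORC2 to ORC6, POLE2, RFC1, RFC3 and WDHD1 were called lower in both of these fits, and RFC2 higher. The share of all genes called in both was not counted, and both fits take their spread from the co-culture pair. DESeq2 and limma-voom called none of the 55, against 1.11% lower and 0.0710% higher of the genes DESeq2 tested. Both comparisons with co-culture share its libraries, and all 3 comparisons share libraries in pairs, so their values are set side by side and not counted as separate evidence.

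The difference between the EX527 replicates ran with the GC content of the transcripts. Across the 55 genes, Spearman's rho between GC of the canonical transcript and the difference of EX527 replicate 1 from replicate 2 was -0.67, and across 11271 well-read genes it was -0.52. With the difference of a single EX527 library from the co-culture mean, rho over the 55 genes was -0.61 for replicate 1 and -0.25 for replicate 2, against -0.43 and -0.06 over all well-read genes. With the difference of co-culture from monoculture it was 0.70 over the 55 and 0.44 over all. These are descriptions across genes that share libraries. At a GC content of 45.9%, the median of the 55 genes, the 27 genes above it had a median difference from co-culture of -1.49 in EX527 replicate 1 and -0.68 in replicate 2. The 28 others had -0.41 and -0.52. All well-read genes above that GC content had -0.57 and -0.05, and those at or below it had -0.04 and -0.00. In EX527 replicate 2, 27 of the 27 genes above the split and 22 of the 28 others were below the co-culture mean. The part of GC content in the results was not tested beyond the corrected fit given next. Co-culture minus monoculture was 1.05 above the split and 0.24 below it, against 0.20 and -0.36 over all genes.

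**Figure D3:**
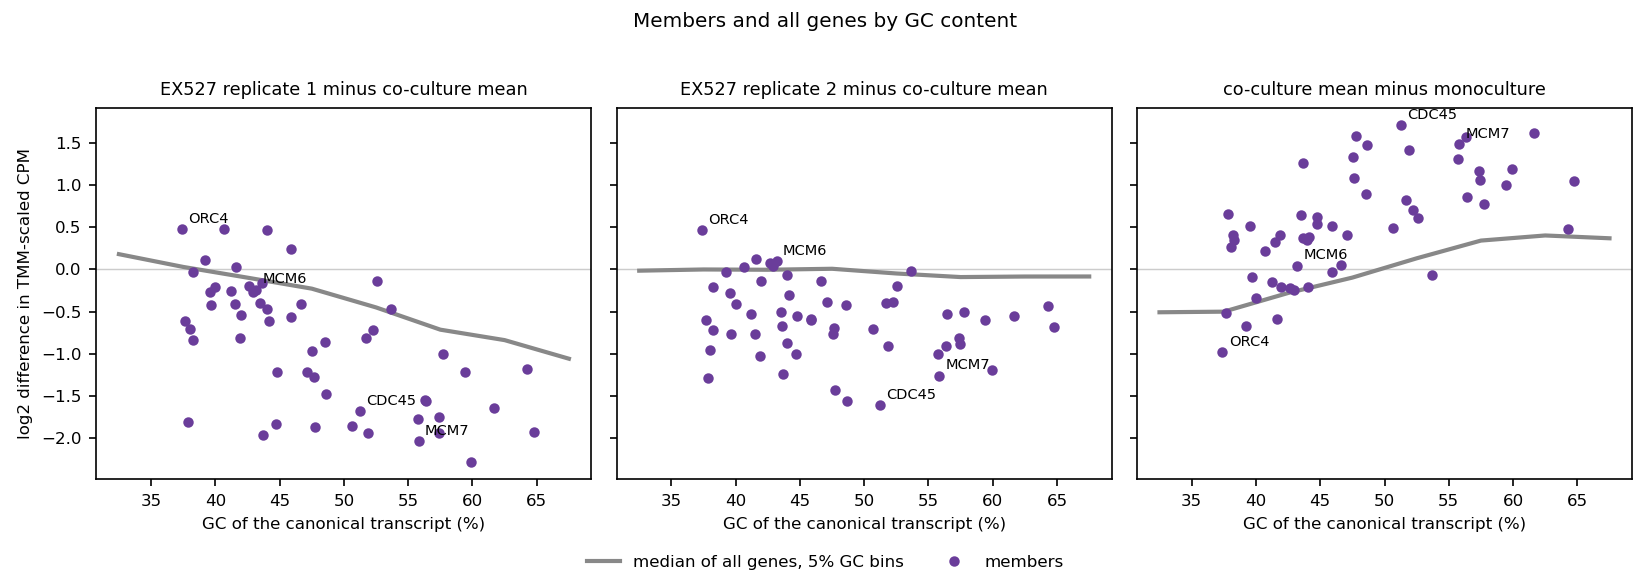
Difference in log2 TMM-scaled CPM (y axis) of each of the 55 genes (points) and the median of all well-read genes in bins of 5% GC (line) against GC content of the canonical transcript (x axis), for each EX527 library minus the co-culture mean and for the co-culture mean minus monoculture. The line falls with GC for EX527 replicate 1, is nearly flat for replicate 2 and climbs for co-culture minus monoculture.

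After a correction for GC content fitted in each library, which was chosen after seeing the data, edgeR called 7 of the 55 genes lower with EX527 and none higher, against 1.39% and 1.36% of 33974 genes. GINS4, MCM7, CDC45, LIG1, GINS2, DNA2 and UHRF1 fell in that fit, with adjusted p of 0.0328, 0.0341, 0.0360, 0.0438, 0.0462, 0.0471 and 0.0476. MCM7 had a log2 fold change there of -1.29 (SE 0.14), CDC45 of -1.45 (SE 0.18) and LIG1 of -1.31 (SE 0.18). MCM6 was at -0.00 (SE 0.15). The median of the 55 genes was -0.54, against 0.33 over all genes. For co-culture against monoculture the corrected fit called none (percent called 0), with a median of 0.65. In it 50 of 55 genes were higher in co-culture, against 42 without the correction, so most of the 13 genes that were lower changed sign.

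**Figure D4:**
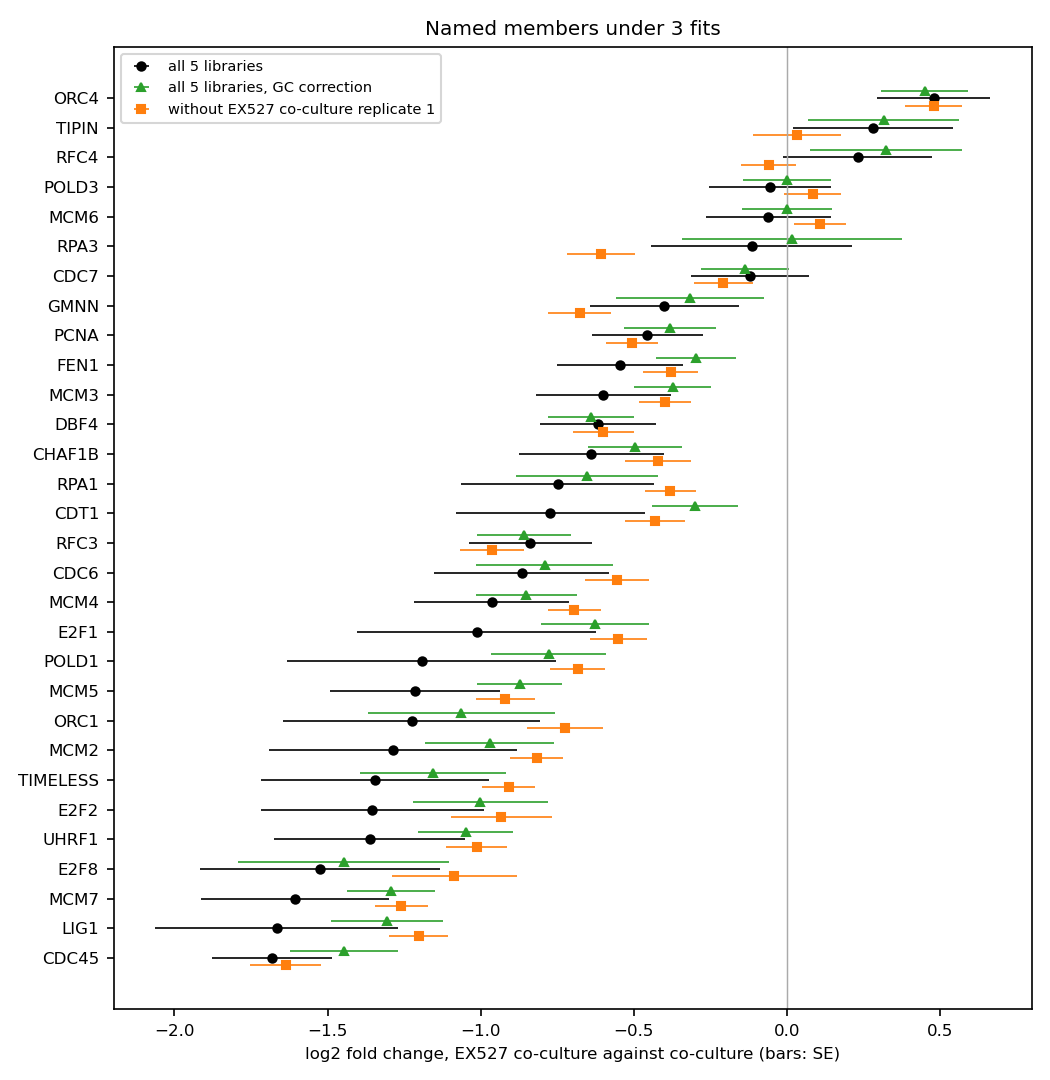
Log2 fold change of EX527 co-culture against co-culture (x axis, bars give the SE) for 30 named genes under 3 fits. CDC45, LIG1 and MCM7 lie at or below -1.20 in every fit, and MCM6, POLD3, RFC4 and RPA3 change sign between fits.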

How the data were processed

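The authors deposited a table of raw read counts per gene for all 5 libraries, per the file headers, and a normalized table that was not used here. Per the series' design text, 500 ng of RNA was poly(A)-selected and amplified with 12 PCR cycles, and STAR 2 aligned the reads left after ribosomal RNA removal to GRCh38.p7. The submitters' processing notes also name fastp, featureCounts and DESeq2. The kit is not described as marking strand, and neither the annotation nor the rule for reads in overlapping genes is stated in the labels or the design text. Exons of 22 of the 55 genes overlap another gene, and reads of the overlap cannot be told apart.

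The test was run with edgeR 4.0.16 in R 4.3.3: filterByExpr (minimum count 10), TMM, 1 coefficient per group over all 5 libraries with 2 residual degrees of freedom, and the quasi-likelihood test with Benjamini-Hochberg adjustment over 34658 genes and a threshold of 0.05. The SE is the absolute log2 fold change divided by the root of F. Alternatives used DESeq2 1.42.0, limma-voom (limma 3.58.1), other scalings and fits without 1 library, and the steps were tested on simulated data. A floor of 3 reads equals 0.0574 to 0.0657 CPM depending on the library, which covers counting error only. Overlaps, lengths and GC content come from GENCODE 44. The members and lists were chosen with earlier results of these data known. Values in every library were given for MCM2 to MCM7, CDC45, CDC6, CDT1, GMNN, PCNA, E2F1, E2F2 and E2F8 and, for each role, the members with the most negative and most positive log2 fold change with EX527. For the other lists the 3 members with the smallest p were named. MCM8, MCM10, GINS1 to GINS4, POLE, POLA1, RFC1, DNA2, CLSPN, WDHD1 and the other ORC subunits were added after their values were seen. Replicate numbers were not taken as pairs, since the labels do not say what a replicate number marks. The replicate differences of both groups had a correlation of -0.359 over 11369 genes. That value cannot decide the pairing, since both differences also ran with GC content, with Spearman's rho of -0.52 for EX527 and 0.49 for co-culture.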

Additional observations from a re-analysis of the deposited data

How the results depend on the processing

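For EX527 co-culture against co-culture, 17 of the 55 genes were called by DESeq2, 7 after the GC correction, 5 with a replicate block (a term for the replicate number) and 18 with the replicate numbers crossed. Leaving out 1 library gave 0 to 46. Over all genes the calls were 3339 with DESeq2, 21 with the older dispersion estimate of edgeR, 935 after the GC correction, 867 with the replicate block (499 lower, 368 higher), 3382 with the crossed block and 0 to 24078 without 1 library. The cause of these shifts was not tested, beyond the common dispersion given with the results. Under library size alone the median of all genes moved from 0.15 to 0.42, and that of the 55 genes was -0.38. There 8 of the 55 were higher without overlap, and the share of all genes is not given. Without 1 library that number was 2 to 6. Of all genes, 33.8% were higher in this way without co-culture replicate 1 and 42.4% without EX527 co-culture replicate 1. For co-culture against monoculture, DESeq2 called 10 of the 55 and 2432 of all genes, and leaving out 1 library gave 0 to 48 and 0 to 15861. The median of the 55 was 0.43 with DESeq2 or its size factors, 0.46 without a filter, 0.65 after the GC correction and 0.47 to 0.53 without 1 library. For EX527 co-culture against monoculture, leaving out 1 library gave 0 to 37 of the 55 genes and 0 to 21330 of all, and DESeq2 called 100 of all. The median there turned to 0.081 under library size alone and 0.015 after the GC correction, and ran from -0.42 to -0.014 without 1 library. There 21 genes were higher without overlap under library size alone, again without the share of all genes. Without 1 library 10 to 29 were higher and 23 to 42 lower, and the share of all genes beside the 42 is not given. Once an EX527 library is left out, this comparison sets 1 library against 1, so overlap can come only from equal values. Without EX527 co-culture replicate 1, 26 of the 55 genes were lower and 29 higher, against 45.1% and 51.8% of all genes. The sign turned for some genes near 0. With EX527, MCM6, CDC7, POLD3 and RPA3 were at 0.20, 0.16, 0.21 and 0.19 under library size alone, and RPA3 was at 0.016 after the GC correction. Without 1 library, MCM6 ran from -0.20 to 0.11, CDC7 from -0.21 to 0.011, POLD3 from -0.16 to 0.084, RFC4 from -0.060 to 0.52 and RPA3 from -0.61 to 0.29. For co-culture against monoculture, MCM6 was at -0.043 with DESeq2 or its size factors, at -0.012 without a filter and from -0.0011 to 0.072 without 1 library, and POLD3 and RFC4 were at 0.048 and 0.0010 after the GC correction. The other 704 alternative values of the genes named by the rule given above kept their sign. Genes added after their values were seen are not in that count. For co-culture against monoculture, more genes turned after the GC correction than POLD3 and RFC4, as given with that fit. The GC correction, the crossed block and the counts of genes without overlap under other settings were chosen after seeing the data. Depth was at least 117 reads for each of the 55 genes in every library, and the groups held 2, 2 and 1 libraries.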
